A study of Homo sapiens with 3 samples.

Results

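The genes described here are the autosomal protein-coding genes whose annotated span reaches at least 600 kb, measured in untreated H9 cells, an established line of human embryonic stem cells (hESCs). Members were chosen by joining the Ensembl identifiers of the count files to GENCODE release 44 and keeping protein-coding genes with a span of 600000 bp or more on chromosomes 1 to 22. Apart from 4 genes left out by the rule, 203 genes met it, and 2 of them were not among the identifiers counted. The remaining 201 genes made up 1.02% of the 19629 protein-coding genes with a match. They covered 194.7 Mb, or 15.7% of the 1242 Mb that autosomal protein-coding genes cover. The rule itself uses no expression value, although it was set with earlier results of these data known.

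Total RNA was isolated from wild-type H9 cells without treatment, grown on vitronectin in Essential 8 Flex medium, and sequenced after depletion of ribosomal RNA in 3 replicates, each a single library. The study used such expression levels to sort transcription start sites (TSSs) and splice sites when it compared replication origins and DNA breaks there. The labels do not say that the replicates were separate cultures, so that the spread between them may be technical. The libraries held 10390984, 12024802 and 8655155 counted reads in the order of the replicate numbers. All 10 pluripotency markers examined lay between 217 and 2576 TPM, with summed levels of 7482, 7510 and 7275 TPM. Of 12 markers of neural progenitors and neurons, 8 reached 1 TPM, their median level was 2.47 TPM, and NES, an intermediate filament gene that stem cells also express, was the highest at 327 TPM. Their summed levels were 377, 355 and 393 TPM in replicates 1, 2 and 3, and NEUROG2 had no read. Of 10 mesendoderm, 8 trophectoderm and amnion, and 8 glia and fibroblast markers, 8, 3 and 4 reached 1 TPM. The part of other cell types in the levels below was not tested.

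Very long genes owe their size to introns, and their coding exons are spread thinly along the chromosome. RNA polymerase needs many hours to cross the longest of them, many encode adhesion molecules, receptors and scaffolds of neurons and their synapses, and several coincide with common fragile sites, regions that break when DNA replication is slowed. Transcription across such a gene can also clear it of licensed replication origins.

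The members had a median span of 878010 bp, with 65 at 1 Mb or more and 6 at 2 Mb or more. Exons made up a median of 1.16% of the span of a member, against 16.8% for all protein-coding genes. Their mature RNAs were long as well. The longest annotated transcript had a median of 7323 bp against 3357 bp, and the canonical transcript a median of 18 exons against 8. The exon length summed over all transcripts of a gene had a median of 11381 bp against 4471 bp. It also grows with the number of annotated transcripts, which had a median of 12 against 6. The GC content of the whole span was 38.0% against 45.2%, whereas the GC content around the canonical start was 63.3% against 61.3%. A span can come from a set of shorter transcripts, but 188 members had a single transcript of at least 600 kb, and 153 had a canonical transcript of that length. Chromosome 3 held 30 members, which was 2.84% of its protein-coding genes, and chromosome 19 held none of its 1459.

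Of the counted reads, 55530, 63487 and 46173 lay on the members in replicates 1, 2 and 3. These were 0.534%, 0.528% and 0.533% of the libraries, with a mean of 0.532 ± 0.00348% (SD, n = 3). The share barely moved between replicates. It is not comparable with the 15.7% of the autosomal protein-coding footprint that the members cover, because that footprint includes introns. Exons were a median of 1.16% of the span of a member against 16.8% for all protein-coding genes. By number, the members were 1.02% of the protein-coding genes with a match. Reads were concentrated on few genes, since 15 of the 201 members held 50% of them.

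Levels were expressed in TPM, for which the count of each gene is divided by its summed exon length and each library is scaled to the same total, and were averaged over replicates. Following the classes of the study, nonexpressed genes were those below 0.01 TPM, and the other protein-coding genes were divided into 3 quantiles, with boundaries at 3.35 and 26.96 TPM. Only 5 members, or 2.49%, were nonexpressed, against 13.6% of all protein-coding genes. A further 116 members (57.7%) fell in the low class, 62 (30.8%) in the medium class and 18 (8.96%) in the high class, which held 28.8% of all protein-coding genes. At least 1 TPM was reached by 120 members, or 59.7%, against 67.4% of all protein-coding genes, and 43 members reached 10 TPM. By these classes, a smaller share of long genes than of all protein-coding genes was nonexpressed, and a smaller share was high. The counts move with the class limits. With classes formed over all genes, 49 members (24.4%) were high, against 47.6% of protein-coding genes, and with a limit of 0.1 TPM, 18 members (8.96%) were nonexpressed, against 18.1%. Detection follows length as well as level. More than 3 reads in every replicate were counted on 168 members, or 83.6%, against 71.9% of all protein-coding genes, and for 87 members a single read in 1 replicate corresponds to less than 0.01 TPM in the mean. Classifying each replicate alone put 192 members (95.5%) in the same class in every replicate.

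The median member had 1.94 TPM, with quartiles at 0.413 and 8.08 TPM, and medians of 1.88, 1.79 and 1.81 TPM in replicates 1, 2 and 3. The median over all protein-coding genes was 7.10 TPM. Levels did not fall steadily with span over all genes. The median was 7.03 TPM for 15291 genes under 100 kb, 10.7 TPM for 2658 genes of 100 to 300 kb, and 4.09 TPM for 574 genes of 300 to 600 kb. The high class held 29.9%, 28.9% and 14.98% of these genes, and 15.1%, 3.69% and 2.44% of them had no read. The SD of the per-replicate medians was at most 0.270 TPM in these bins, less than each step from a bin to the next. Genes are not replicates, so no test was made over them. The length used in TPM bears on this comparison, since the summed exons of a member had a median of 1.51 times the length of its longest transcript, against 1.23 for all genes. With the longest transcript as length, the medians were 2.08 TPM for the members and 7.42 TPM for all protein-coding genes.

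**Figure D1:**
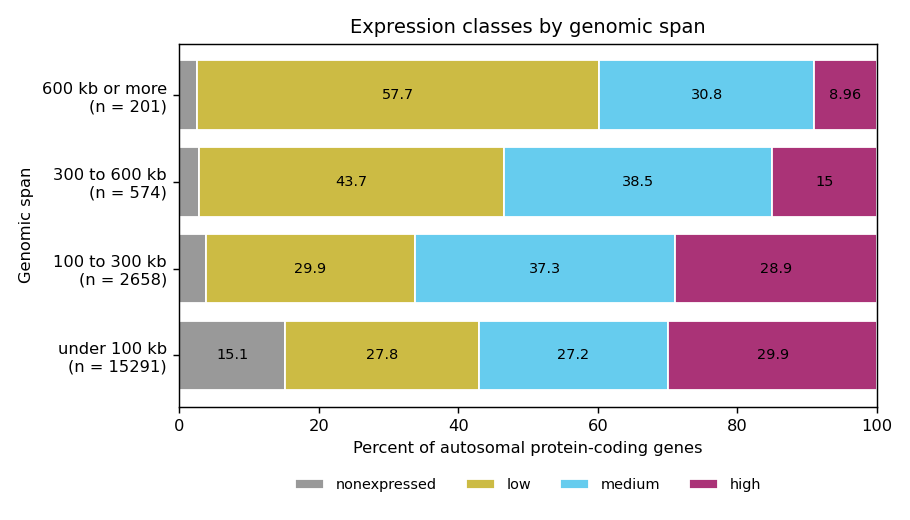
Percent of autosomal protein-coding genes in each expression class (x axis) for 4 bins of genomic span (y axis, with the number of genes), by mean TPM of 3 replicates. The high class shrinks from 29.9% of genes under 100 kb to 8.96% of genes of 600 kb or more, where the low class holds 57.7% and the nonexpressed class 2.49%.

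Within the members the longest were on the whole lower. The 83 members of 600 to 800 kb had a median of 3.54 TPM, with 55 at 1 TPM or more and 12 in the high class. The 53 members of 800 kb to 1 Mb had a median of 2.55 TPM, with 33 and 2. The 49 members of 1 to 1.5 Mb had a median of 0.979 TPM, with 24 and 1, and the 16 members of at least 1.5 Mb had a median of 0.917 TPM, with 8 and 3. Across the 196 members with a read, Spearman's rho of span and TPM was -0.217, and that of start GC and TPM was 0.243. These points share the same 3 libraries and both values are given as a description. At the threshold, the genes just short of it were ELMO1 (596318 bp, 6.01 TPM), NFIA (597530 bp, 2.03 TPM) and SNX29 (597554 bp, 5.998 TPM), and the shortest members were DNM3 (600580 bp, 1.28 TPM), MAPK10 (604619 bp, 0.308 TPM) and KHDRBS2 (606265 bp, 9.79 TPM). MAPK10 had 1.11 TPM over its longest transcript.

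**Figure D2:**
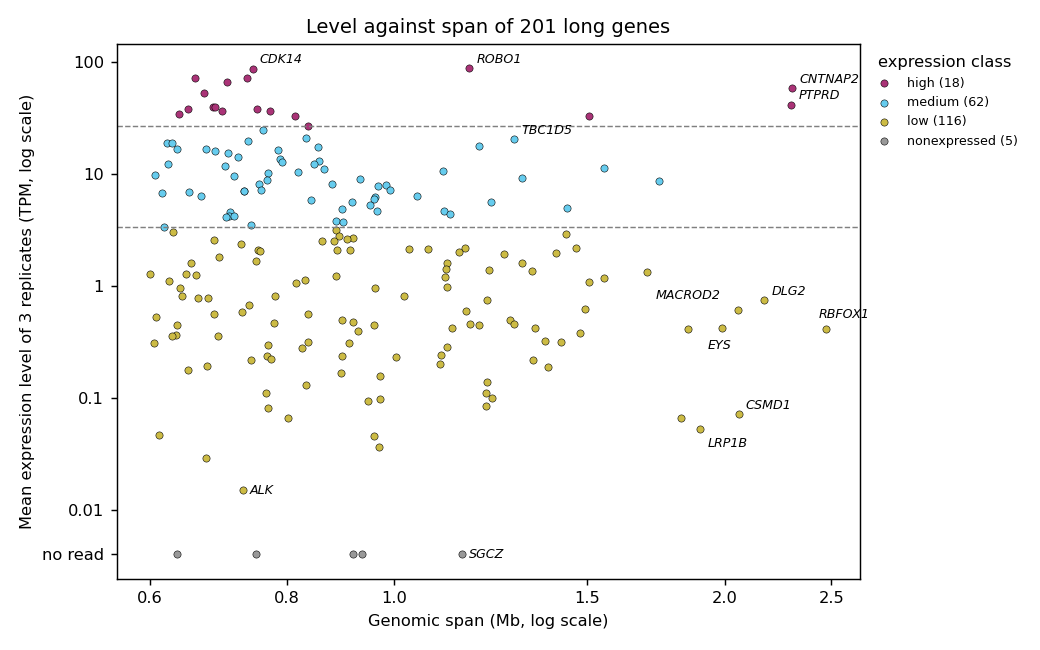
Genomic span in Mb (x axis, log scale) and mean TPM of 3 replicates (y axis, log scale) of the 201 members, coloured by expression class, with dashed lines at the class boundaries of 3.35 and 26.96 TPM. Members without a read are drawn on a strip at the bottom. Among the 6 members of 2 Mb or more, CNTNAP2 and PTPRD lie in the high class and the others at 0.749 TPM or less.

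The 10 longest members covered nearly the whole range of levels. RBFOX1 (ENSG00000078328, chromosome 16, 5239802 to 7713340), which encodes a splicing factor of neurons and muscle, was the longest at 2473539 bp and had 10, 27 and 15 reads in replicates 1, 2 and 3, or 0.413 ± 0.162 TPM (SD, n = 3). CNTNAP2 (ENSG00000174469, chromosome 7, 146116002 to 148420998), which encodes a neurexin-like adhesion protein that gathers potassium channels along axons, spans 2304997 bp and had 2514, 2888 and 2113 reads, or 58.5 ± 0.449 TPM (SD, n = 3). PTPRD (ENSG00000153707, chromosome 9, 8314246 to 10613002), which encodes a receptor phosphatase of synapse formation, spans 2298757 bp and had 1271, 1492 and 1018 reads, or 41.9 ± 1.62 TPM (SD, n = 3). The longest gene of all was therefore near the lower quartile of the members, and the following 2 in length were among its 8 highest genes, with no overlap between replicates of RBFOX1 and those of either.

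DLG2, a scaffold gene of the postsynaptic density with a span of 2173324 bp, had 56, 64 and 46 reads, or 0.749 ± 0.0140 TPM (SD, n = 3). CSMD1, a gene of a CUB and sushi domain protein that restrains complement, spans 2059620 bp and had 2, 3 and 5 reads, or 0.0715 ± 0.0428 TPM. MACROD2, which encodes an enzyme that removes ADP-ribose from proteins, spans 2057829 bp and had 18, 19 and 17 reads, or 0.608 ± 0.0605 TPM. All of these lay in the low class, with fewer than 70 reads in any replicate. Over the longest transcript in place of all exons, DLG2 had 1.69 TPM, MACROD2 1.05 TPM and RBFOX1 1.003 TPM. EYS, a photoreceptor gene of 1987247 bp, had 0.426 ± 0.0599 TPM, and 12.9% of its exon length is shared with another gene. LRP1B, a gene of an LDL receptor family member with 1899594 bp, had 3, 3 and 1 reads. CTNNA3, an alpha catenin gene of 1851181 bp that is known from the heart, had 0.413 ± 0.157 TPM, and PCDH15, a protocadherin gene of hair cells with 1825172 bp, had 1, 4 and 3 reads. CSMD1, LRP1B and PCDH15 thus had at most 5 reads in any replicate, and without replicate 3 the level of CSMD1 was 0.0470 TPM.

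The highest member was ROBO1 (ENSG00000169855, chromosome 3, 78597239 to 79767998), the gene of a Slit receptor that steers growing axons and migrating cells. It had 2590, 2955 and 2114 reads, or 90.0, 88.4 and 86.2 TPM. CDK14 (ENSG00000058091, chromosome 7, 90466424 to 91210590), the gene of a cyclin-dependent kinase that acts at the membrane in Wnt signaling, had 1640, 1925 and 1286 reads, or 89.8, 90.7 and 82.6 TPM. Their means of 88.2 ± 1.93 and 87.7 ± 4.44 TPM (SD, n = 3) did not differ beyond the spread between replicates.

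PTPRG (ENSG00000144724, chromosome 3, 61561569 to 62297609), the gene of a receptor tyrosine phosphatase with a carbonic anhydrase-like outer domain, had 2885, 3149 and 2204 reads, or 75.8, 71.2 and 67.9 TPM. TENM3 (ENSG00000218336, chromosome 4, 182143987 to 182803024), which encodes a teneurin that matches synaptic partners, had 2272, 2515 and 1939 reads, or 72.7, 69.2 and 72.7 TPM. PARD3 (ENSG00000148498, chromosome 10, 34109560 to 34815325), the gene of a polarity protein at epithelial junctions, had 1322, 1516 and 1015 reads, or 69.2, 68.3 and 62.3 TPM. PTPRG and TENM3 overlapped in their replicates and both lay below CDK14 in every one. FAT3 (ENSG00000165323, chromosome 11, 92224818 to 92896473), which encodes a giant cadherin, had 2968, 3104 and 2067 reads, or 58.1, 52.2 and 47.4 TPM, so that its replicates ran down to well below those of CNTNAP2.

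From PTPRD down to EXOC4 each gene overlapped in its replicates with the next in the order. MAGI1, a scaffold of cell junctions, had 39.8 ± 2.22 TPM (SD, n = 3), ADGRL2, a latrophilin that binds teneurins, 39.4 ± 1.80 TPM, and EXOC6B, a subunit of the exocyst that tethers vesicles to the plasma membrane, 38.3 ± 0.752 TPM. LRBA, which protects CTLA4 from degradation, had 38.1 ± 0.556 TPM, NAV2, a cytoskeletal protein of neurite growth, 36.4 ± 1.64 TPM, CDKAL1, a tRNA-modifying enzyme, 36.3 ± 2.70 TPM, and AGAP1, a GTPase-activating protein of endosomes, 34.8 ± 1.67 TPM. EXOC4 and RABGAP1L, at 33.2 and 27.0 TPM, were also in the high class. The order within the top depends on the length used. Divided by the longest transcript, ADGRL2 had 81.8 TPM, CNTNAP2 76.2 TPM, LRBA 58.2 TPM, EXOC4 56.5 TPM and TENM3 59.2 TPM, while ROBO1 had 97.8 TPM and PTPRG 84.2 TPM.

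**Figure D3:**
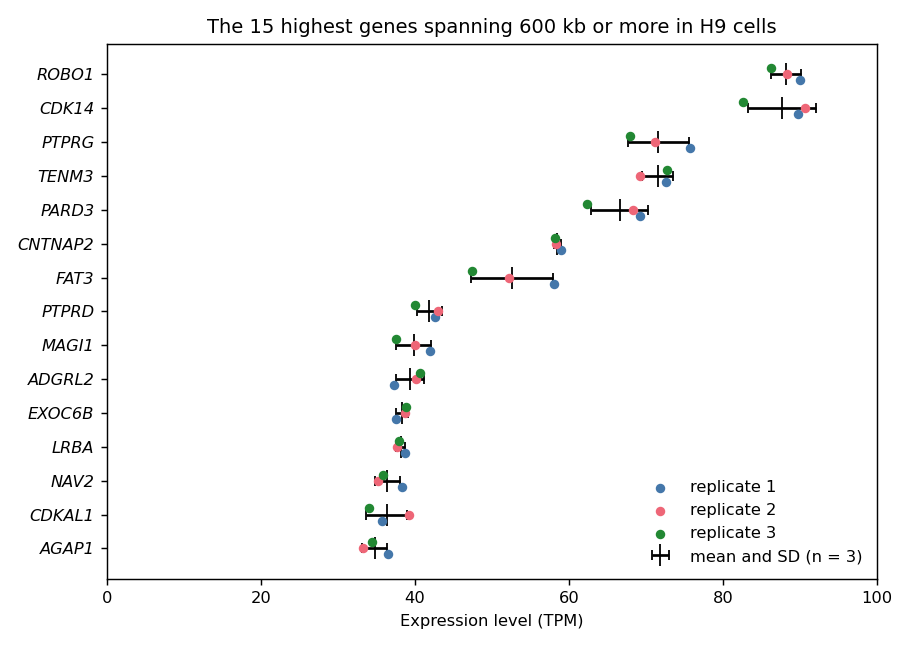
Expression level in TPM (x axis) of the 15 members with the highest means (y axis), with each replicate as a point and the mean and SD of the 3 replicates in black. ROBO1 and CDK14 share the top with overlapping replicates, FAT3 has the widest spread among these genes at an SD of 5.33 TPM, and the genes from PTPRD down have means between 34.8 and 41.9 TPM.

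The 5 members without a read were SGCZ, which encodes a sarcoglycan of the muscle membrane, ANKFN1, CNBD1, IQCJ-SCHIP1 and ENSG00000282278. The last 2 are read-through loci that share 43.4% and 100% of their exon length with other genes, and reads that fit several genes may have been assigned elsewhere. For SGCZ, a count of 0 still allows up to 0.157, 0.135 and 0.184 TPM in replicates 1, 2 and 3, at 3 counts per library, and for ANKFN1 up to 0.0883, 0.0760 and 0.104 TPM. Such limits cover counting error only. Another 13 members had between 1 and 9 reads in all, among them ALK, a receptor tyrosine kinase of the developing nervous system, with 0, 1 and 0 reads.

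The bases upstream of the start were compared for the 145 members whose RefSeq start lies within 10 bp of the start of the canonical transcript. Shown are the 250 bases before the start of 2 members of the high class, ROBO1 and PTPRG, and of 2 members with no read or a single read, ANKFN1 and ALK. They are printed 5′ to 3′ from RefSeq on GRCh38.p14 with each CG dinucleotide (CpG) in capitals. ROBO1 lies on the minus strand at chr3:79767999-79768248, PTPRG on the plus strand at chr3:61561321-61561570, ANKFN1 on the plus strand at chr17:56153225-56153474 and ALK on the minus strand at chr2:29921587-29921836.
ROBO1: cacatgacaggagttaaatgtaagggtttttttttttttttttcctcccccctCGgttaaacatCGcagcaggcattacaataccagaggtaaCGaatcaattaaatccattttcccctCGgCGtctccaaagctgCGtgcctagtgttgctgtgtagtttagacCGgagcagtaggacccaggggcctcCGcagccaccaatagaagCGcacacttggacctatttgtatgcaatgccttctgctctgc
PTPRG: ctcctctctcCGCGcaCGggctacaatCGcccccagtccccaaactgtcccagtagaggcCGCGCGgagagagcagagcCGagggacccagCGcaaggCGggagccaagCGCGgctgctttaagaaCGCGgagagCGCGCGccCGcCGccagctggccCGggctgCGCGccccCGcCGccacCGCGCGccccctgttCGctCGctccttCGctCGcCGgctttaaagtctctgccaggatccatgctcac
ANKFN1: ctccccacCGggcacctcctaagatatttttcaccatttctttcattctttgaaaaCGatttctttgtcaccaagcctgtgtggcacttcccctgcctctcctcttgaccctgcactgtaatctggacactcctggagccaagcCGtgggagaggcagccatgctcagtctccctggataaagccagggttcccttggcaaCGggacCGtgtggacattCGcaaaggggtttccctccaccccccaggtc
ALK: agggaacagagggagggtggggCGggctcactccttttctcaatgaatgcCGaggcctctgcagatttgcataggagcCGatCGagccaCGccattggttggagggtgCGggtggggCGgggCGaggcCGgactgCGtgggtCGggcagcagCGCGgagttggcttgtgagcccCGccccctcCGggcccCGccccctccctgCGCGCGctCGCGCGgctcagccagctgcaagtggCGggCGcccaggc

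The letters CG occurred 9 times before ROBO1 and 32 times before PTPRG, 6 times before ANKFN1 and 24 times before ALK. The motif reads the same on both strands and cannot overlap itself. A CpG-rich start was thus found at both ends of the range of levels, and a CpG-poor one as well. The counts are per gene and do not show which of several starts was used, and ROBO1 has shorter transcripts that begin elsewhere. Over the 145 members the median was 21 CpG, and 111 members (76.6%) had at least 10, against a median of 19 and 72.8% over the 14513 protein-coding genes matched in the same way. Of the 34 members with fewer than 10 CpG, 14 (41.2%) reached 1 TPM, against 27.6% of all such genes. Of the 35 members with 10 to 19 CpG, 20 (57.1%) did, against 80.4%. Of the 76 members with 20 or more, 54 (71.1%) did, against 89.5%. The medians of these groups of members were 0.763, 1.61 and 2.80 TPM. The share of members at 1 TPM or more was therefore above that of all genes in the group with the fewest CpG and below it in the others, a difference in counts that was not tested.

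The members were then grouped by role, and a gene may belong to more than 1 group. Among 25 members for synaptic and neuronal adhesion, 16 reached 1 TPM and 3 were in the high class, with a median of 1.62 TPM. TENM3, CNTNAP2 and ADGRL2 led, followed by TENM4 at 13.7 ± 2.35 TPM (SD, n = 3) and LRRTM4, a postsynaptic partner of neurexins, at 12.2 ± 0.859 TPM. NRXN3, a neurexin gene, had 1.35 ± 0.166 TPM, and NLGN1, a neuroligin that binds neurexins across the synapse, had 4.88 ± 0.252 TPM. CNTNAP5, a relative of CNTNAP2, was the lowest at 0.167 ± 0.0616 TPM. Of 10 cadherins, protocadherins and catenins, 4 reached 1 TPM. FAT3 was followed by CDH4 at 15.9 TPM, CTNND2, a delta catenin of dendrites, at 8.97 TPM and CTNNA2 at 2.18 TPM, and the other 6 lay between 0.0662 TPM for PCDH15 and 0.456 TPM for CDH13.

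Of 9 axon guidance genes, 5 reached 1 TPM. After ROBO1 and NAV2 came DAB1, the adaptor of reelin signaling, with 11.3 ± 1.13 TPM, and ROBO2 with 8.69 TPM, whereas the ligand gene SLIT3 had 0.966 TPM, the netrin receptor gene DCC 0.452 TPM and MYO16, a myosin gene, 0.0466 ± 0.0517 TPM. MYO16 rested on 0, 1 and 2 reads, and came to 0.0187 TPM without replicate 3 and 0.0698 TPM without replicate 1. Of the Slit receptors and the Slit ligand among the members, both receptors lay above the ligand in level. All 5 receptor tyrosine phosphatases reached 1 TPM, from PTPRT at 1.62 TPM through PTPRM at 5.91 TPM and PTPRN2 at 6.42 TPM to PTPRD and PTPRG. They had the highest median of any group, at 6.42 TPM. The 5 genes of CUB, sushi, LDL and sortilin receptors had the lowest, at 0.0844 TPM, with CSMD2 at 6.92 ± 0.581 TPM and SORCS3 at 1.11 TPM alone above 1 TPM.

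Of 5 neurotransmitter receptors, 2 reached 1 TPM, and the median was 0.286 TPM. The metabotropic receptor gene GRM8 had 1.07 TPM, GRIK2, of the kainate type, 0.286 TPM, GRID1 0.236 TPM and GRM7 0.0975 TPM. GRM7 had 0.157 TPM over its longest transcript and 0.0573 TPM with counts thinned to 50%. Of 14 ion channels and their subunits, 9 reached 1 TPM and none was in the high class. TMEM132D, a membrane protein of uncertain role, had 21.1 ± 1.33 TPM, FGF12, an intracellular partner of sodium channels, 18.9 TPM, and RYR2, the calcium release channel of the heart, 12.8 TPM. The calcium channel gene CACNA1C had 0.589 TPM and NKAIN3 0.110 TPM.

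The 16 synaptic scaffolds, vesicle and active zone proteins had a median of 5.45 TPM, and 12 reached 1 TPM. MAGI1 was followed by GPHN, which anchors inhibitory receptors and serves molybdenum cofactor synthesis, at 16.7 TPM, SHANK2 at 16.6 TPM, ANK3 at 15.4 TPM and GRIP1 at 14.3 TPM. GPHN shares 12.7% of its exon length with another gene. NRG1, a neuregulin growth factor gene that the list holds, was the lowest at 0.140 TPM. Of 20 growth factor and kinase signaling genes, 11 reached 1 TPM, and CDK14 and PARD3 stood far above SPOCK1, a secreted proteoglycan gene, at 12.3 TPM. The receptor kinase ERBB4 had 0.599 TPM. The low end held SGCZ and ALK, and SGCD, another sarcoglycan gene that is not a signaling gene in the strict sense, had 0.238 TPM.

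Of 18 transcription and chromatin regulators, 10 reached 1 TPM and none was in the high class. TBC1D5, which the list holds although it encodes a GTPase-activating protein for Rab proteins, had 20.5 ± 0.216 TPM. AUTS2, a regulator of Polycomb activity in neurons, had 1088, 1297 and 1068 reads, or 17.8 ± 1.36 TPM, and ZFHX3, a homeodomain factor, 10.6 TPM. FOXP1 had 3.05 TPM, RUNX1, a factor of blood formation, 0.758 TPM, and ZFPM2, a cofactor of GATA proteins, 0.110 TPM. Over the longest transcript, AUTS2 had 44.6 TPM and FOXP1 10.5 TPM. Of 5 genes on the RNA list, 3 reached 1 TPM, with KHDRBS2, a splicing regulator, at 9.79 ± 1.70 TPM and IMMP2L, in fact a peptidase of the mitochondrial inner membrane, at 3.76 TPM.

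The 38 intracellular enzymes and trafficking proteins had a median of 4.33 TPM, with 25 at 1 TPM or more and 6 in the high class. Besides EXOC6B, LRBA, CDKAL1, AGAP1, EXOC4 and RABGAP1L, the group held LPP, a focal adhesion protein, at 19.7 TPM and TTC28 at 11.8 TPM. AGBL1, a carboxypeptidase of tubulin side chains, was the lowest, with 0, 0 and 4 reads or 0.0364 ± 0.0630 TPM, and hence 0 TPM without replicate 3. With AGBL1, 13 of the group lay below 1 TPM. Of 8 extracellular matrix and secreted proteins, 4 reached 1 TPM, between SPOCK1 and ADAMTSL1 at 0.232 TPM. The 27 members on no list had a median of 1.80 TPM, and KIAA1217 was the highest of them at 17.6 TPM.

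**Figure D4:**
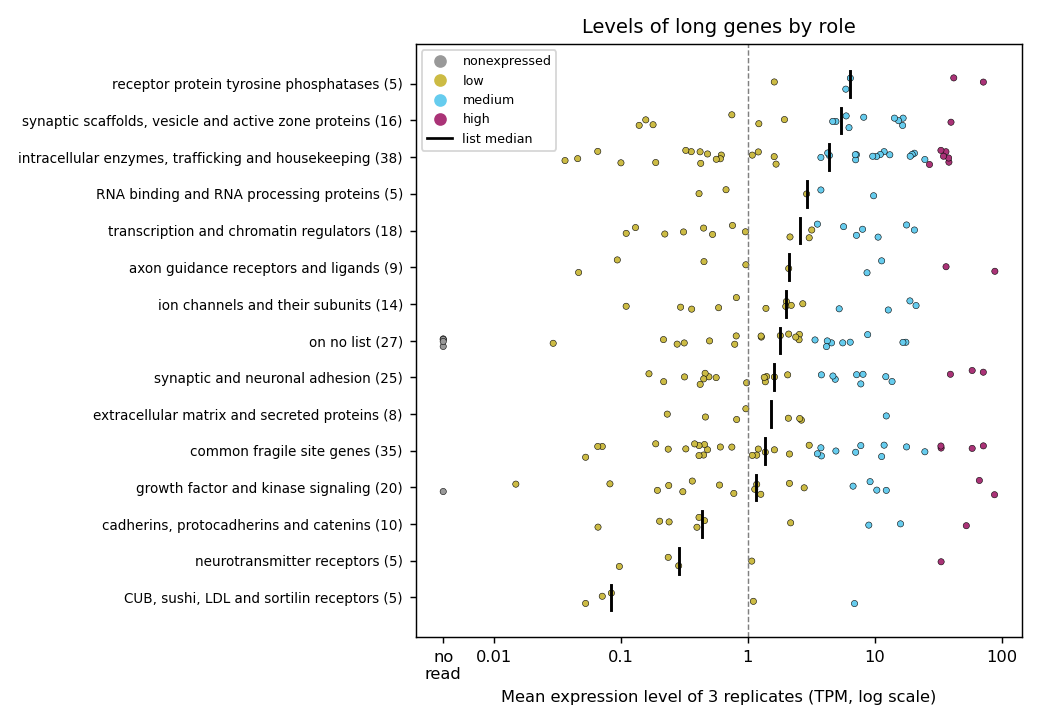
Mean TPM of 3 replicates (x axis, log scale) of the members in each role group (y axis, with the number of members), coloured by expression class, with the median of each group as a black bar and a dashed line at 1 TPM. Vertical jitter is for display. Medians run from 0.0844 TPM for CUB, sushi, LDL and sortilin receptors to 6.42 TPM for receptor tyrosine phosphatases, and most groups spread over more than 100-fold in level.

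Common fragile sites were of particular interest, because the study is concerned with DNA breaks at replication origins in these cells. Of 35 members listed at such sites, 21 (60.0%) reached 1 TPM and 4 were in the high class, with a median of 1.37 TPM, near the 59.7% and 1.94 TPM of all members. The classical fragile genes FHIT and WWOX were low but detected. FHIT (chromosome 3, 59747277 to 61251459), a diadenosine triphosphate hydrolase gene at FRA3B, had 25, 20 and 18 reads, or 1.09 ± 0.200 TPM (SD, n = 3). WWOX (chromosome 16, 78099400 to 79212667), an oxidoreductase gene at FRA16D, had 50, 70 and 44 reads, or 1.21 ± 0.123 TPM. FHIT and WWOX thus overlapped in their replicates, and over the longest transcript they had 1.96 and 2.54 TPM.

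IMMP2L had 3.76 ± 0.388 TPM, NAALADL2, a relative of glutamate carboxypeptidase, 0.325 ± 0.0642 TPM, and CCSER1 0.382 ± 0.193 TPM, with 14.4% of its exon length shared. PDE4D, a cAMP phosphodiesterase gene, had 1.18 ± 0.295 TPM, LSAMP, an adhesion gene of the limbic system, 1.37 ± 0.105 TPM, and DPYD, which encodes the enzyme that breaks down pyrimidines, 0.482 ± 0.263 TPM. The cadherin gene CDH13, with 21.4% of its exons shared, had 0.456 TPM and the orphan receptor gene ESRRG 0.449 TPM. At the other end of the list, PTPRG, CNTNAP2 and EXOC4 were in the high class. Between them and the low genes lay TTC28 at 11.8 TPM, SDK1, a synaptic adhesion gene, at 7.76 TPM, NBEA, which serves membrane traffic in neurons, at 7.07 TPM, MAGI2 at 4.94 TPM, NEGR1 at 3.80 TPM and PARD3B at 2.13 TPM. Of these, NBEA had 17.9 TPM and MAGI2 18.1 TPM over the longest transcript. Fragile site genes of this span were therefore found at levels from 0.0529 TPM (LRP1B) to 71.6 TPM (PTPRG).

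Many members have a close relative that is also a member, and the relatives often differed widely. ROBO1 exceeded ROBO2 by 10.2 times, with a log2 ratio of 3.34 ± 0.00814 (SD, n = 3). CNTNAP2 exceeded CNTNAP5 by 351 times and CSMD2 exceeded CSMD3 by 82.1 times, where the lower gene had few reads in each case. PARD3 exceeded PARD3B by 31.3 times, NRG3 exceeded NRG1 by 33.4 times, and TENM3 exceeded TENM4 by 5.23 times and TENM2 by 155 times. ADGRL2 exceeded ADGRL3 by 4.88 times. In each of these pairs the replicates of the higher gene lay wholly above those of the lower. They overlapped for DPP6 and DPP10 (2.01 and 1.99 TPM), CNTN4 and CNTN5, and CSMD3 and CSMD1. Some ratios moved with the gene length. That of MAGI1 to MAGI2 was 8.06, but over their longest transcripts the levels were 44.8 and 18.1 TPM. In the same way ADGRL2 and ADGRL3 came to 81.8 and 6.60 TPM, TENM3 and TENM2 to 59.2 and 0.715 TPM, CNTNAP2 and CNTNAP5 to 76.2 and 0.127 TPM, and DPP6 and DPP10 to 5.64 and 2.52 TPM. For EXOC6B and EXOC4 and for PTPRN2 and PTPRM the order turned with that length, to 49.8 and 56.5 TPM and to 4.83 and 7.23 TPM.

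**Figure D5:**
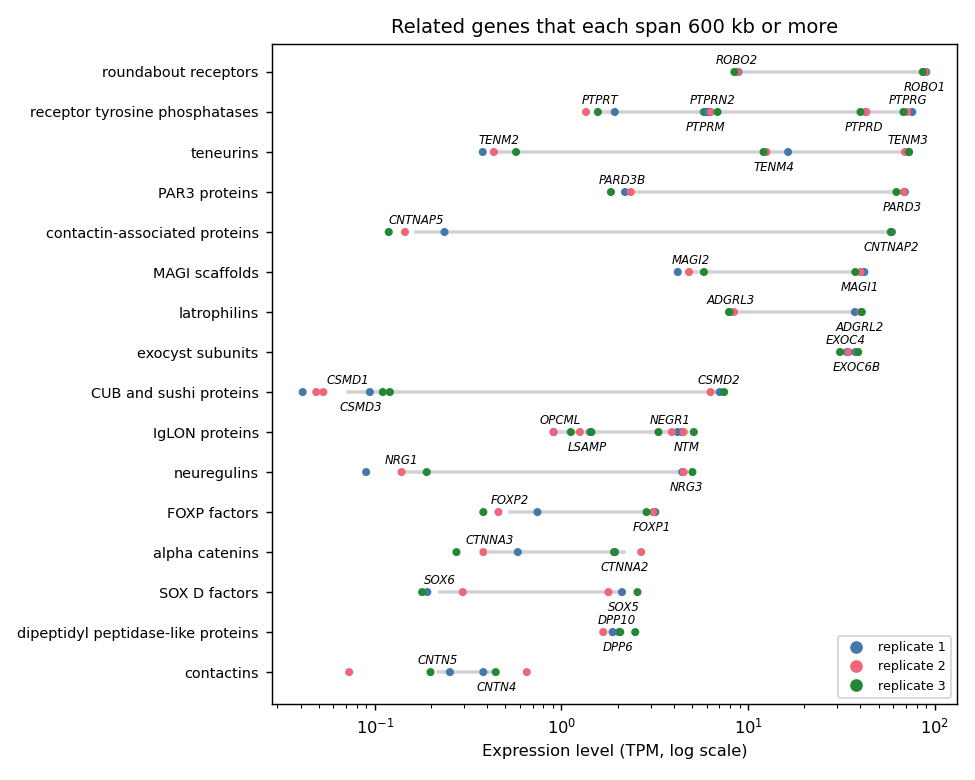
Expression level in TPM (x axis, log scale) of members that belong to the same protein family (y axis), with each of 3 replicates as a coloured point and a grey line from the lowest to the highest mean. With the summed exons as length, the widest separation is that of CNTNAP2 and CNTNAP5, 351-fold, and DPP6 and DPP10 overlap, whereas over the longest transcript the latter come to 5.64 and 2.52 TPM.

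Other protein-coding genes lie wholly within the span of a member. There were 23 of these within 19 members, 17 of them on the opposite strand. Of the 23, 14 reached 1 TPM, against 67.4% of all protein-coding genes. In 12 of the 23 pairs the inner gene was the higher, and in 4 of these the outer gene was a read-through locus without a read. The median was 1.94 TPM for the members and 7.10 TPM for all protein-coding genes. How often a gene that is not nested lies above a member was not tested. LRRN1, a leucine-rich repeat gene, had 163 TPM within SUMF1, the gene of an activator of sulfatases, which had 8.79 ± 0.738 TPM (SD, n = 3). MDH1, the cytosolic malate dehydrogenase gene, had 147 TPM within WDPCP at 4.26 TPM, and CSTF2T, a polyadenylation factor gene, had 88.4 TPM within PRKG1 at 9.18 TPM. These inner genes share at most 3.83% of their exon length with another gene. The reverse held for MAB21L2, with 5 reads and 0.239 TPM within LRBA at 38.1 TPM, but MAB21L2 shares 58.6% of its exon length with another gene. Whether reads in introns or on the opposite strand were counted is not given in the sources used here. A part of a count may therefore belong to an overlapping gene. Any reads counted in a member's own introns would also add to its level, since TPM divides by exon length alone. This was not tested. Exon overlap was absent for 91 members and reached 10% for 19.

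Replicates were compared gene by gene with a chi-square test of the 3 counts against the library totals, adjusted by Benjamini and Hochberg over 13947 protein-coding genes with at least 20 reads. Among the 168 members tested, 13 (7.74%) varied beyond counting error at an adjusted p under 0.05, against 13.8% of all genes tested. At an unadjusted p under 0.05 there were 26, or 15.5% against 24.9%. The call depends on reads. It was made for 0 of 49 members with 20 to 99 reads, 3 of 80 with at least 100 but under 1000 reads and 10 of 39 with 1000 or more, against 2.34%, 8.29% and 22.5% of all genes. It also depends on the libraries. Without replicate 3 there were 4 such members, without replicate 1 there were 7, and without replicate 2 there were 16, with 1.501%, 11.17% and 12.52% of all genes.

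FAT3 had 286, 258 and 239 CPM, the count scaled by the library total, in replicates 1, 2 and 3, and TENM4 had 67.4, 51.8 and 51.0 CPM. PTPRG, LPP and FRMD4A were likewise highest in replicate 1 and lowest in replicate 3. RORA, a nuclear receptor gene, had 120, 167 and 176 reads, or 11.5, 13.9 and 20.3 CPM, and the largest coefficient of variation (CV) among the 73 members with at least 100 reads in each replicate, at 28.5%. MAGI2 had 35.8, 41.3 and 50.6 CPM. With RORA and MAGI2, the genes AUTS2, MGAT4C, ADGRL2 and RABGAP1L were highest in replicate 3 and lowest in replicate 1, and ZFHX3 was lowest in replicate 2. Apart from ZFHX3, which had 64.2, 51.0 and 64.9 CPM, these genes thus fell into opposite directions between replicates 1 and 3. Replicate 3 was either the highest or the lowest library for each of them, and no replicate was high for all or low for all. Over the 73 members, the median CV was 5.61%, close to the 5.57% of 9386 protein-coding genes with as many reads. Each replicate was also set against the mean of the remaining 2, and the median log2 ratio was 0.00065, -0.017 and -0.0048 for the members and -0.0089, 0.0042 and -0.00081 for those genes. Of the 73 members, 37 lay above and 36 below the other libraries in replicate 1, 32 above and 41 below in replicate 2, and 36 above and 37 below in replicate 3.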

How the data were processed

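H9 cells were measured as total RNA in 3 replicates of 1 group, after depletion of ribosomal RNA. According to the submitters' processing notes and the methods of the study, the authors trimmed reads with Trim Galore (0.4.4), aligned them to GRCh38 with TopHat2 (2.1.1) and estimated their own TPM with Cufflinks (2.2.1), which was not used here. The counts deposited by the authors are whole reads per gene, without normalization, for 58051 identifiers. Which tool and annotation did the counting, and whether strand was used, is not given in the sources used here. All 3 count columns were used.

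Of the identifiers, 56948 matched GENCODE release 44. TPM was computed here from the counts and the union of exons. With 1 group, no difference between conditions could be tested. Variation between replicates was tested by chi-square with Benjamini-Hochberg adjustment. The depths of 8655155 to 12024802 counts limit low levels.

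The members, role lists, marker lists and alternatives were chosen with earlier results of these data known. Named were the 15 highest and 10 longest members, the highest and lowest of each role list, fragile site members, the 3 genes on each side of the threshold, the extremes of CV and the members without a read, apart from a few that are not reported here. Other named genes, the families and the 4 printed sequences were chosen after their values were seen. The alternatives were other gene lengths, scalings by edgeR (4.0.16) TMM or DESeq2 (1.42.0) size factors, spans, overlap and count filters, class thresholds, thinning, GC correction and leaving out each replicate. Scripts ran in Python 3.11.15 (scipy 1.17.1, pandas 2.3.3, numpy 2.4.6, matplotlib 3.10.9) and R 4.3.3.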

Additional observations from a re-analysis of the deposited data

How the results depend on the processing

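Depth limits the low members, where a few reads decide the level, and overlapping genes limit others. No paired analysis was possible because there is only 1 group. Scaling by DESeq2 factors gave 17 high members in place of 18, scaling by TMM factors gave 18, and both left all 91 named levels within their SD. With the longest transcript as length, the median was 2.08 TPM, and of the 91 named levels 42 were higher by more than their SD, 14 lower and 35 within it. Other spans change the genes counted. At 500 kb there were 302 genes, with 187 at 1 TPM or more, 28 in the high class, a median of 2.02 TPM and 0.767% of counts. At 800 kb there were 118, with 3 nonexpressed, 65 at 1 TPM or more, 6 high, a median of 1.29 TPM and 0.201% of counts. The 188 members with a single transcript of 600 kb held 0.499% of counts. The 182 members with under 10% exon overlap had 3 nonexpressed, a median of 2.07 TPM and 0.521% of counts. Thinning counts to 50% gave a median of 1.84 TPM. A threshold of 0.1 TPM left 18 members nonexpressed, and classes over all genes put 49 members in the high class. Leaving out each replicate gave medians of 1.84 to 1.92 TPM, 5 to 6 nonexpressed members, 119 to 121 at 1 TPM or more, 17 to 18 high, 0.531% to 0.534% of counts and 4 to 16 members that varied beyond counting error. The median log2 ratio became -0.0473 for replicate 1 and 0.0198 for replicate 3 with at least 20 reads per replicate. With DESeq2 size factors it was 0.0342, -0.00704 and -0.0485 for replicates 1, 2 and 3. After GC correction it was -0.0366 for replicate 2 and 0.0170 for replicate 3. The cause was not tested.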

Other observations

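Genes as long as the members but outside the rule were examined as well. Long noncoding RNA (lncRNA) genes of 600 kb or more on the autosomes numbered 60, of which 20 had no read and 5 (8.33%) reached 1 TPM, against 31.3% of all 13854 autosomal lncRNA genes. Their median was 0.0456 TPM. OBI1-AS1 had 311, 352 and 258 reads in replicates 1, 2 and 3, or 11.5 ± 0.181 TPM (SD, n = 3), and SGO1-AS1 had 130, 132 and 108 reads, or 7.21 ± 0.508 TPM. LINC01090 had 6.48 ± 1.81 TPM, with 36.3% of its exon length shared with another gene, CASC15 had 1.79 ± 0.0976 TPM and DLEU1 had 1.21 ± 0.156 TPM. Other long lncRNA genes thus lay below 1 TPM.

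On the X chromosome, 11 protein-coding genes spanned 600 kb or more, of which 7 reached 1 TPM and 1 had no read, with a median of 1.69 TPM. DIAPH2, a formin gene, had 15.6 ± 0.659 TPM (SD, n = 3), PCDH11X, a protocadherin gene, 7.29 ± 0.570 TPM and FGF13, an intracellular partner of sodium channels and microtubules, 7.18 ± 0.835 TPM. TENM1, the X-linked teneurin gene, had 3.94 ± 0.416 TPM. DMD, the dystrophin gene with a span of 2241933 bp, had 235, 234 and 199 reads, or 1.56 ± 0.133 TPM.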
